A study of Mus musculus with 24 samples.

Results

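The livers of male Ppara knockout (KO) mice were compared with those of male wild-type (WT) mice, with attention to amino acid and NAD genes, to changes below the most extreme ones and to pathways that stayed level. The comparison used the arrays of liver pools 4 to 6 (KO) and 1 to 3 (WT), which are 6 of the 24 arrays of a series on liver and heart in both sexes. PPARα is a fatty acid sensor of the nuclear receptor family. Paired with the retinoid X receptor on direct repeats in DNA, it raises the transcription of genes for fatty acid transport and oxidation. In liver it is best known for the response to fasting. It has also been tied to the enzymes that break down amino acids and to those that turn tryptophan into NAD, the electron carrier that fatty acid oxidation reduces.

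All animals were SV129 mice, the strain named in the labels, aged about 10 to 12 weeks and killed at zeitgeber time 14. A male WT array held liver RNA pooled from 4 animals with an intact Ppara gene, and a male KO array held RNA pooled from 4 animals without it, 3 pools of each genotype. No treatment or diet is named, and the allele's construction and breeding are not given in the sources used here. Female WT pools 7 to 9 and female KO pools 10 to 12 of the same tissue, age and time entered the fit for their spread and 1 comparison of the sexes.

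Levels are log2 intensities, a difference is KO minus WT on the log2 scale, and ± gives the SD over 3 pools. Adjusted p-values come from limma over 18193 genes (Benjamini-Hochberg, two-sided), and a gene passed under 0.05. They measure the spread between pools, each of which averages 4 animals. A gene was called level where the 95% interval of its difference lay wholly between -0.5 and 0.5, since missing the threshold does not show that a gene is unaltered.

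The 6 arrays were close in quality, but their medians did not overlap between genotypes. Array medians were 2.430, 2.435 and 2.441 in WT and 2.461, 2.454 and 2.459 in KO pools, and 2.43 to 2.49 over the liver arrays. With arrays centred on their medians 102 genes passed, 24.5% of them higher in KO livers, against 28.2% without centring. Pools of 1 genotype correlated over genes at 0.993 to 0.996. The gap between 3 prime and 5 prime Actb controls ran from 1.19 to 1.33 in WT and from 1.19 to 1.63 in KO pools (exact two-sided permutation p = 0.6, where 0.1 is the smallest that 3 against 3 allow). The hepatocyte marker list had a mean level of 11.48 to 11.55 in WT and 11.45 to 11.52 in KO pools, with Alb, the albumin gene, between 13.43 and 13.54. The marker list of Kupffer cells and macrophages ran from 3.89 to 4.41 against 4.04 to 4.36, that of endothelium from 4.58 to 4.69 against 4.48 to 4.62, and that of stellate cells from 4.00 to 4.25 against 4.01 to 4.25. The means of the lymphocyte, erythroid, pancreatic, adipocyte and muscle lists, given further below, did not overlap between genotypes. Female KO pool 12 had the lowest array weight of the 12 liver arrays, 0.358, and shares in the estimate of spread used for males.

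Ppara was at 8.67, 8.31 and 8.48 in the WT pools and at 7.50, 7.34 and 7.27 in the KO pools. Every KO pool lay below every WT pool, and the gene fell by 1.12 (95% interval -1.40 to -0.84, limma adjusted p = 0.000748). Its transcript was thus still measured in KO livers, and where the probes lie relative to the deleted part is not given in the sources used here. In bulk liver, fewer cells of a type and less RNA per cell cannot be told apart, for this and the following genes.

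In all, 110 genes passed, 0.605% of those tested, with 31 higher (0.170%) and 79 lower (0.434%) in KO livers. Among 4821 bright genes, with a mean above 4 over the 12 liver arrays, 82 passed (1.70%). In each of the 110 the 3 KO pools lay on 1 side of the 3 WT pools, as they did in 16.7% of all genes. Large changes were few. At least 4-fold changes, a log2 difference of 2 or more, numbered 2 rises and 5 falls, while 9 rises and 28 falls lay between 1 and 2, 18 rises and 38 falls between 0.5 and 1, and 2 rises and 8 falls under 0.5. Of the 79 genes that fell, 22 were in the lists of fatty acid oxidation, 2 in those of amino acids and 1 in those of NAD. Of the 31 that rose, none was in a fatty acid oxidation list, 3 were in amino acid lists and 2 in NAD lists. The count moved with single pools, to 60 without pool 1, 60 without pool 2, 69 without pool 3 and 55 without pool 5. Without female KO pool 12, an alternative added after the data were seen, it was 153.

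Of the amino acid genes, 5 passed. Over all amino acid lists 3 of 167 measured genes rose and 2 fell, 2.99%, against 0.605% of all genes and 1.70% of bright genes. These lists, like all others here, were chosen with earlier results of these data known. They also hold a larger share of bright genes than the array, so the comparison of shares is not a test. The median difference was 0.02, against 0.01 over all genes. The 3 that rose were Asns, Oat and Aldh1l1, and the 2 that fell were Suox and Slc25a22. Level genes made up 72.5% of these lists, 121 of 167, against 84.7% of all genes. Bright genes were level in 82 of 118 cases (69.5%), against 68.7% of all bright genes. The count of 5 fell with any 1 of the 6 pools left out: 0 passed without pool 1 or pool 4, and 1 passed without pool 2, 3, 5 or 6.

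Asns, the enzyme that makes asparagine from aspartate and glutamine, stood at 3.01, 4.10 and 3.29 in WT pools and at 6.43, 4.68 and 6.32 in KO pools. Pools 4 and 6 were far above all WT pools, and pool 5 was 0.58 above the highest of them. The rise was 2.34 (95% interval 1.51 to 3.17, limma adjusted p = 0.0118), and a second probe set of the gene gave 1.71 without passing (limma adjusted p = 0.109). Asns did not pass without pool 1, 3, 4 or 6 or with a trended, robust variance (2.03 to 2.90, limma adjusted p 3.6e-05 to 0.0817 over its alternatives). The gene is a known target of ATF4, the transcription factor induced when amino acids are scarce. The RefSeq promoter of Asns is printed because it holds the short element through which ATF4 acts on this gene, in capitals, at 23 to 15 bases before the gene start. It covers 250 bases before to 50 after the start, on the minus strand of GRCm38.p6 at chr6:7693160-7693459:

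Asns: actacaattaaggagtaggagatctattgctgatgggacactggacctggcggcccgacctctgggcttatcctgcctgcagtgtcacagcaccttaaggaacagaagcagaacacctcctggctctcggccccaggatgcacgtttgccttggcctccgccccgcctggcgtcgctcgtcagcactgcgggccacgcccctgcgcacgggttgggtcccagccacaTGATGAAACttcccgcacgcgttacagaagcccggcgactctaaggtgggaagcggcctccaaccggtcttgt

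Searched on both strands, TGATGAAAC was in 29 of 14452 tested genes with a RefSeq promoter (0.201%). Asns was the only holder among 27 genes that rose, and 0 of 69 that fell had it. A match describes the letters and does not show a bound site.

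No other gene of the ATF4 list passed. Asns was the only 1 of 39 measured members that passed, and the median was 0.02. Level members were 23 of 39 (59.0%), against 84.7% of all genes. Among bright members 11 of 20 (55.0%) were level, against 68.7% of all bright genes. With only 20 bright members, this comparison of shares is not a test. Atf4 itself was at 7.42, 7.36 and 7.43 in WT and 7.34, 7.36 and 7.39 in KO pools, a difference of -0.04 (95% interval -0.25 to 0.18). Trib3, a pseudokinase induced by ATF4, was level at 0.02, near the array median, and Ddit3, the stress factor CHOP, differed by -0.23 (95% interval -0.61 to 0.14). Atf5, a related transcription factor, was higher in all 3 KO pools by 0.55 but missed the threshold (limma adjusted p = 0.138). It passed with a fit of the 6 male arrays, with all 24 arrays, with a trended variance and after renewed quantile normalization (limma adjusted p 0.0183 to 0.427 over its alternatives). Ddit4, an inhibitor of mTORC1, stood at 0.75 with overlapping pools (limma adjusted p = 0.607), and the glycine transporter gene Slc6a9 at 0.40 (limma adjusted p = 0.168).

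The synthesis of serine, glycine and proline and the loading of transfer RNA showed no gene past the threshold beyond Asns. Over all genes 0.605% passed and 84.7% were level. Phgdh, the first enzyme of serine synthesis, differed by 0.21 (95% interval -0.17 to 0.59), and Psat1, the next step, was level at -0.03 but near the array median in all pools. Of 19 aminoacyl-tRNA synthetase genes 15 were level, with a median of -0.06. Farsb, a subunit of the phenylalanine enzyme, was lowest at -0.49 (limma adjusted p = 0.098), and passed with the 6 male arrays alone and with array weights (limma adjusted p 0.026 to 0.746 over its alternatives).

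Oat, ornithine aminotransferase, which links ornithine to glutamate and proline, was at 9.78, 9.96 and 10.18 in WT and at 10.78, 10.67 and 10.65 in KO pools. The KO pools were tightly grouped above all WT pools, and the rise was 0.73 (95% interval 0.46 to 0.99, limma adjusted p = 0.0165). It did not pass without pool 1, 2, 4, 5 or 6 (0.63 to 0.83, limma adjusted p 0.000309 to 0.0976 over its alternatives). Oat was the only gene that passed of 17 transaminases and ammonia-releasing enzymes and of 13 genes of histidine, lysine and proline breakdown. Prodh, proline dehydrogenase, was at 0.29 (95% interval 0.05 to 0.54) and Hal, which deaminates histidine, at 0.23 (95% interval -0.00 to 0.46), the latter level.

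The main transaminases did not pass. Got1, cytosolic aspartate aminotransferase, was at 9.96, 9.87 and 9.33 in WT and 10.84, 10.28 and 9.62 in KO pools. Pools 3 and 6 were the lowest of their genotypes and the groups overlapped, with a difference of 0.53 (95% interval 0.01 to 1.05, limma adjusted p = 0.56). Its mitochondrial partner Got2 was level at -0.07, and the alanine aminotransferase gene Gpt was level at 0.14. Gpt2, the mitochondrial alanine enzyme, differed by -0.24 with an interval of -0.65 to 0.17, too wide to call it level. Etnppl, a pyridoxal phosphate enzyme that splits phosphoethanolamine and was chosen after its values were seen, rose from 8.62, 8.36 and 8.35 to 9.33, 9.32 and 9.09 (0.80, limma adjusted p = 0.0152). A second Etnppl probe set gave 0.39 and did not pass (limma adjusted p = 0.535).

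Among 28 genes of methionine, cysteine and one-carbon metabolism 1 rose, 1 fell and 21 were level. Over all genes 0.170% rose, 0.434% fell and 84.7% were level. Aldh1l1, which oxidises formyl-tetrahydrofolate, was at 10.47, 10.40 and 10.40 in WT and 10.91, 10.73 and 10.81 in KO pools. The groups were apart by more than the spread within each, and the rise of 0.40 passed narrowly (limma adjusted p = 0.0347). It did not pass without any 1 of the 6 pools or under 5 other alternatives (0.23 to 0.44, limma adjusted p 0.00197 to 0.51). A second Aldh1l1 probe set gave 0.07 and did not pass (limma adjusted p = 0.943). Suox, sulfite oxidase, the last step of cysteine sulfur breakdown, was at 6.96, 6.91 and 7.10 in WT and 6.24, 6.34 and 6.50 in KO pools. All KO pools were lower, and it fell by 0.63 (limma adjusted p = 0.0274). It did not pass without pool 1, 2, 3, 4 or 5 (-0.70 to -0.57, limma adjusted p 0.0122 to 0.154 over its alternatives).

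Csad, which makes the precursor of taurine from the same cysteine branch, was higher in every KO pool, at 8.34, 8.23 and 7.92 against 7.19, 7.01 and 7.05. The difference of 1.08 did not pass (95% interval 0.49 to 1.67, limma adjusted p = 0.157), though it did with the 6 male arrays alone or with all 24 (limma adjusted p 0.00135 to 0.427 over its alternatives). Cbs, which starts cysteine synthesis, stood at 0.40, and Dmgdh and Sardh, the mitochondrial enzymes that strip methyl groups from dimethylglycine and sarcosine, at 0.34 and 0.31. None of these 3 passed (limma adjusted p = 0.224, 0.143 and 0.23). In each the KO pools all lay above the WT pools, but pools did not overlap in 16.7% of all genes. The 3 were also named for the size of their difference. Gnmt and Ahcy, which use and clear the methylation cofactor, were level at 0.13 and 0.12.

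Of 29 amino acid transporter genes only Slc25a22, a mitochondrial glutamate carrier, passed. Its WT pools were at 6.14, 6.11 and 6.22 and its KO pools at 5.55, 5.65 and 5.40. Every KO pool was lower, and the gene fell by 0.62 (95% interval -0.88 to -0.36, limma adjusted p = 0.0357). It did not pass without any 1 of the 6 pools (-0.68 to -0.55, limma adjusted p 0.00136 to 0.166 over its alternatives). Slc1a2, a plasma membrane glutamate transporter, was at 0.68 (95% interval 0.17 to 1.19, limma adjusted p = 0.403).

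The urea cycle and the breakdown of tyrosine and branched-chain amino acids stayed level. All 10 urea cycle genes and all 7 genes of phenylalanine and tyrosine breakdown measured here were level. So were 19 of 21 genes of branched-chain breakdown, against 84.7% of all genes. Cps1, the entry of ammonia into the urea cycle, was at 11.82, 11.89 and 11.82 in WT and 11.76, 11.67 and 11.66 in KO pools, a difference of -0.14 (95% interval -0.30 to 0.01). Arg1, the arginase that releases urea, was at -0.17 (95% interval -0.38 to 0.03) and Otc at 0.06. Hpd and Fah of tyrosine breakdown were at 0.15 and 0.09, and Tat, which starts it, at 0.02 (95% interval -0.27 to 0.30). Glul, glutamine synthetase, was level at -0.13. Sds and Acmsd had no probe set of a single gene and were not analysed here.

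**Figure D1:**
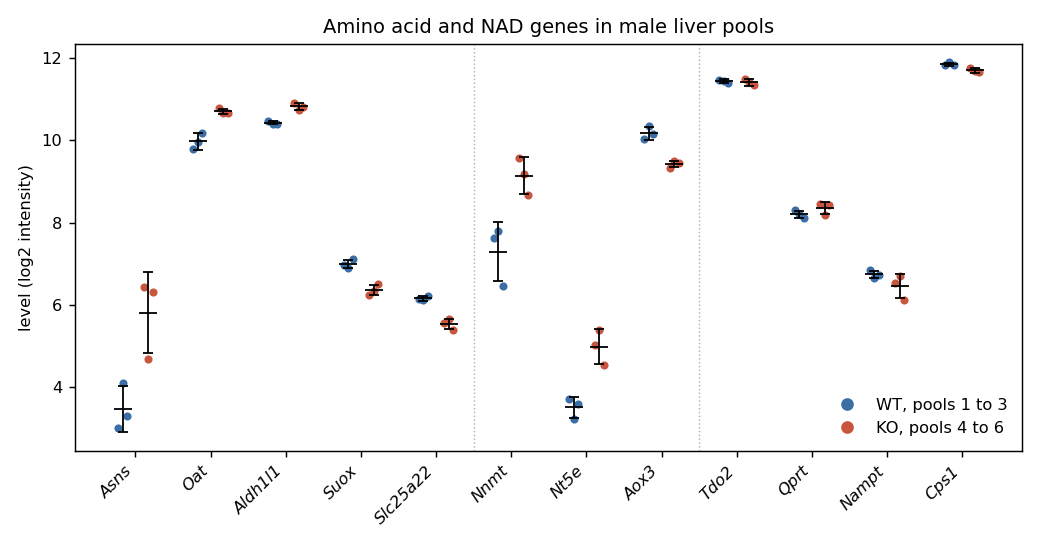
Levels (log2 intensity) of 12 amino acid and NAD genes in male liver, with 1 point per pool, a horizontal line for the mean and bars for the SD over 3 pools; WT pools are blue and KO pools red. Asns, Oat, Aldh1l1, Nnmt and Nt5e were higher and Suox, Slc25a22 and Aox3 lower in KO pools without overlap, while Tdo2 and Qprt overlapped, Nampt overlapped through pool 5 and Cps1 differed by -0.14.

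Of the NAD genes, 3 passed. Over all NAD lists 2 of 72 measured genes rose and 1 fell, 4.17%, against 0.605% of all genes and 1.70% of bright genes. The median was -0.04. The lists were chosen with earlier results of these data known and are rich in bright genes, so the comparison of shares is not a test. Level genes made up 81.9% (59 of 72), against 84.7% of all genes, and 75.0% of the bright ones (30 of 40), against 68.7%. The 3 that passed were Nnmt, Nt5e and Aox3, and 2 or 3 passed under every alternative tried.

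Nnmt, which methylates nicotinamide and so removes it from NAD salvage, was at 7.62, 7.79 and 6.47 in WT and 9.58, 9.17 and 8.67 in KO pools. Pool 3 was the lowest of all and every KO pool was above every WT pool. The rise was 1.85, or 3.60-fold (95% interval 1.17 to 2.53, limma adjusted p = 0.016). It did not pass without pool 4 or 5 or with a trended, robust variance (1.44 to 2.10, limma adjusted p 4.82e-05 to 0.114 over its alternatives).

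Aox3, a liver aldehyde oxidase whose family oxidises nicotinamide and its methylated form to pyridones, moved the other way. Its WT pools were at 10.03, 10.34 and 10.15 and its KO pools at 9.33, 9.49 and 9.44. The groups did not overlap, and it fell by 0.75 (95% interval -0.99 to -0.51, limma adjusted p = 0.00482) and passed under every alternative tried. Its relative Aox1 was level at -0.04 (95% interval -0.46 to 0.37).

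Nt5e, the surface enzyme CD73, which turns AMP into adenosine and can release nicotinamide riboside from its nucleotide outside the cell, was at 3.71, 3.23 and 3.60 in WT and 5.03, 5.38 and 4.54 in KO pools. All KO pools were higher, and the rise was 1.47, or 2.77-fold (95% interval 1.04 to 1.90, limma adjusted p = 0.00295). The 2 other probe sets of the gene gave 0.22 and 0.03 and did not pass (limma adjusted p = 0.815 and 0.954). The mean of the 3 probe sets gave 0.57 and missed the threshold (limma adjusted p 2.02e-05 to 0.142 over its alternatives). It was the only 1 of 21 nucleotidase and adenosine genes that passed.

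NAD synthesis had no gene past the threshold, while 0.605% of all genes passed. Of 11 genes of the route from tryptophan 7 were level (63.6%), against 84.7% of all genes, and the median was -0.09. Tdo2, the liver enzyme that opens this route, was at 11.46, 11.45 and 11.38 in WT and 11.50, 11.40 and 11.33 in KO pools, with a difference of -0.02 (95% interval -0.20 to 0.15). Qprt, which joins the route to the NAD skeleton, was level at 0.15 (95% interval -0.07 to 0.37). The widest differences were -0.52 for Kyat1, a kynurenine aminotransferase (limma adjusted p = 0.398), and 0.28 for Afmid, which hydrolyses formylkynurenine (limma adjusted p = 0.569).

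In salvage, 10 of 13 genes were level. Nampt, its rate-limiting enzyme, was at 6.84, 6.66 and 6.72 in WT and 6.52, 6.71 and 6.13 in KO pools, where pool 6 was the lowest and pool 5 lay among the WT pools. The difference of -0.29 had an interval of -0.63 to 0.05, so it was neither called nor level. Nmnat1, which completes NAD in the nucleus, was lower in all KO pools at -0.40 without passing (limma adjusted p = 0.369). Of 21 NAD-consuming genes 20 were level (95.2%), against 84.7% of all genes, among them Sirt3 at -0.20 and Sirt2 at 0.04, deacetylases of mitochondria and cytosol. Only 8 of the 21 were bright, all of them level, and in dim genes a change may not show.

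The rises ranked 9 to 20 by size lay between 0.83 and 1.09. Apoa4, an apolipoprotein of triglyceride-rich particles, was at 11.54, 11.45 and 11.05 in WT and 12.32, 12.39 and 12.27 in KO pools. The KO pools were close together above all WT pools, and it rose by 0.98 (limma adjusted p = 0.000712). Sult5a1, a sulfotransferase, was at 4.99, 5.04 and 4.75 and at 5.92, 5.91 and 5.92, a rise of 0.99 (limma adjusted p = 0.00234). Pctp, which moves phosphatidylcholine between membranes, rose by 1.04 (limma adjusted p = 0.0028), and Rdh16f2, of a retinol dehydrogenase family, by 0.92 (limma adjusted p = 0.00386). These 4 passed under every alternative tried, where the mean of all probe sets gave Pctp as 0.63.

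Among lipoprotein and plasma lipid genes 1 of 22 rose, Apoa4, and 1 fell, Mfsd2a, a lysophospholipid transporter. Over all genes 0.170% rose and 0.434% fell.

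The organic anion transporter genes Slc22a7 and Slco1a4 rose by 1.09 and 0.86 (limma adjusted p = 0.0135 and 0.0205). Slc22a7 was at 5.79, 5.81 and 5.10 in WT and 6.49, 6.87 and 6.61 in KO pools, and Slco1a4 at 6.63, 6.25 and 7.05 and at 7.56, 7.39 and 7.58. WT pool 3 was the lowest for the first and the highest of its genotype for the second, and neither gene's groups overlapped. Aldh1b1, a mitochondrial aldehyde dehydrogenase, rose by 0.95 (limma adjusted p = 0.0192), and Bdh2, a cytosolic dehydrogenase held by the ketone list but better known for making an iron-binding compound, by 0.83 (limma adjusted p = 0.00866). Olfml1, Pcp4l1 and Adam11, an ADAM family gene, rose by 1.04, 0.97 and 0.83 from WT means of at most 3.65. Pdk4, a kinase that restrains pyruvate entry into the citric acid cycle, rose by 0.90 (limma adjusted p = 0.0274). Its WT pools were at 2.03, 2.34 and 2.34, under the array median, and its KO pools at 2.80, 3.20 and 3.42. At such levels the size of the rise is uncertain.

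Calls of this size often needed all 6 pools. Slc22a7 did not pass without pool 5 or 6, Olfml1 without pool 1, 2, 5 or 6, and Bdh2 without pool 1, 2 or 5, with limma adjusted p of at most 0.0851, 0.0935 and 0.0643. Aldh1b1 did not pass without pool 2, 3, 4, 5 or 6 (at most 0.104), Slco1a4 without pool 1, 2, 4, 5 or 6 (at most 0.111), Pdk4 and Pcp4l1 without pool 1, 2, 3, 5 or 6 (at most 0.166 and 0.209), and Adam11 without any 1 pool (at most 0.172). Pcp4l1 was also lost when arrays were centred on their medians, and Adam11 rose by 0.53 with the mean of its probe sets. Every 1 of the 12 kept its direction under each alternative.

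**Figure D2:**
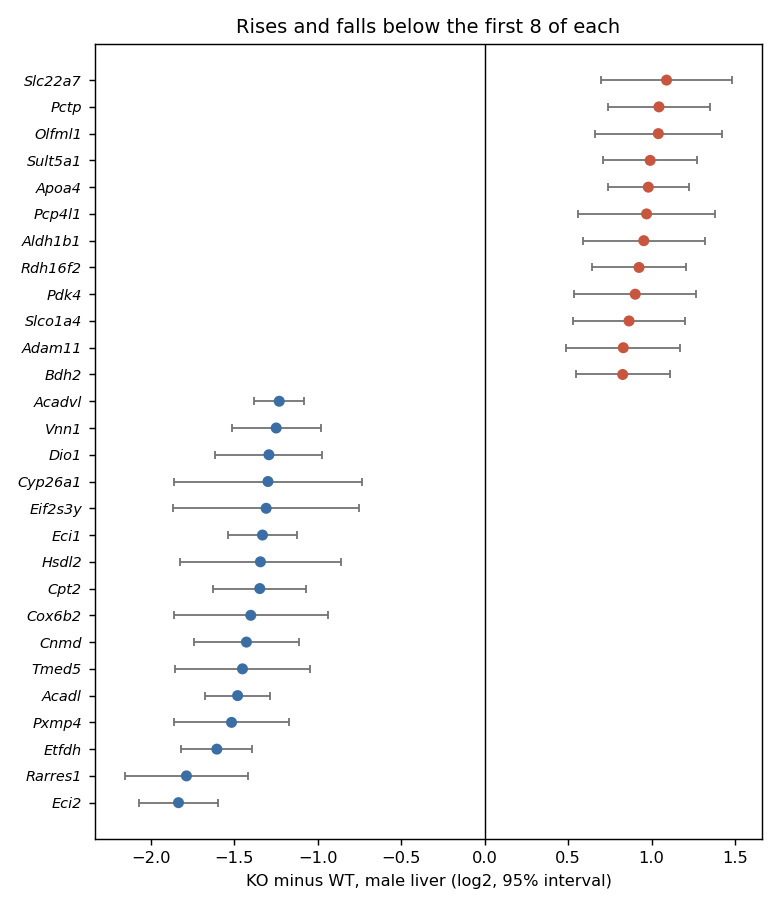
Differences between KO and WT male liver (log2) for the rises ranked 9 to 20 (red) and the falls ranked 9 to 24 (blue) by size, each with its 95% interval from limma. The rises lie between 0.83 and 1.09 and the falls between -1.83 and -1.23, and the intervals of Eif2s3y, Cyp26a1, Hsdl2 and Cox6b2 are among the widest.

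The falls ranked 9 to 24 were led by enzymes of fatty acid breakdown and held several genes outside it. Eci2, an enoyl-CoA isomerase, was at 8.49, 8.37 and 8.39 in WT and 6.60, 6.62 and 6.53 in KO pools, a fall of -1.83 (limma adjusted p = 1.53e-06). Acadvl, the dehydrogenase for very long chains, was at 9.27, 9.30 and 9.25 and at 8.11, 8.01 and 8.01, a fall of -1.23 (limma adjusted p = 1.53e-06). Both had KO pools that spanned only 0.09, far below the WT pools. Etfdh, which passes the electrons of these enzymes to the respiratory chain, fell by 1.60, Acadl by 1.48, Cpt2, which forms acyl-CoA inside mitochondria, by 1.35, and Eci1 by 1.33. Pxmp4, a peroxisomal membrane protein, fell by 1.52 from 7.09, 6.91 and 6.76 to 5.44, 5.44 and 5.33 (limma adjusted p = 0.00037), and Hsdl2, a peroxisomal dehydrogenase-like protein, by 1.34 (limma adjusted p = 0.0135).

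Outside fat oxidation, Rarres1, a retinoid-responsive gene, was at 5.41, 5.52 and 5.28 in WT and 3.35, 3.99 and 3.50 in KO pools, a fall of -1.79 (limma adjusted p = 0.000143). Dio1, the deiodinase that activates thyroid hormone in liver, was at 8.61, 8.55 and 8.32 and at 7.11, 7.55 and 6.94, a fall of -1.29 (limma adjusted p = 0.000712). In both the KO pools lay at least 0.77 below the lowest WT pool. Cyp26a1, which degrades retinoic acid, fell by 1.30 (limma adjusted p = 0.0442), Tmed5, a cargo receptor of the early secretory pathway, by 1.45 (limma adjusted p = 0.00207), and Cnmd, which encodes the cartilage protein chondromodulin, by 1.43 (limma adjusted p = 0.000259). Cox6b2, the testis form of a cytochrome oxidase subunit, fell by 1.40 from a WT mean of 4.28, whereas the common form Cox6b1 was level at 0.00. Vnn1, a pantetheinase, fell by 1.25 to KO pools of 2.39, 2.32 and 2.08, under the array median, so the size of that fall is uncertain. When a gene's probe sets were averaged, the differences were -0.81 for Etfdh, -0.70 for Acadl, -0.89 for Cpt2, -0.80 for Tmed5 and -0.82 for Vnn1, and all 5 passed.

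Eif2s3y, a Y-linked translation factor gene, was at 5.18, 4.73 and 4.99 in WT and 3.43, 3.08 and 4.46 in KO pools (-1.31, limma adjusted p = 0.0373). The other Y-linked genes Kdm5d and Uty, chosen after their values were seen, differed by -0.04 and -0.06, at levels of 2.26 to 2.56, near the array median, where a fall could not show. Xist was at most 2.07 in the 6 pools. Of these falls, Cox6b2 did not pass without pool 1 or 5 (limma adjusted p at most 0.0502) and Hsdl2 without pool 1, 2, 3, 5 or 6 (at most 0.0743). Cyp26a1 and Eif2s3y did not pass without pool 1, 2, 3, 4 or 5 or under several other settings (at most 0.223 and 0.209).

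Of the 38 falls between 0.5 and 1, Hsd17b4, the peroxisomal multifunctional enzyme, was at 9.39, 9.44 and 9.44 in WT and 8.51, 8.46 and 8.52 in KO pools, a fall of -0.93 (limma adjusted p = 0.000117). Hsd17b11, a lipid droplet dehydrogenase, was at 9.55, 9.50 and 9.63 and at 8.63, 8.62 and 8.77, a fall of -0.88 (limma adjusted p = 0.00136). In both, the spread within a genotype was a small part of the gap. Acbd5, which tethers peroxisomes and binds acyl-CoA, Aldh3a2, which oxidises fatty aldehydes, and Acsm3, a medium-chain acyl-CoA synthetase, fell by 0.97, 0.81 and 0.69 (limma adjusted p = 0.0192, 0.0167 and 0.0373). Abcg5, a subunit of the sterol exporter, and Elovl3, a fatty acid elongase, fell by 0.81 and 0.55 (limma adjusted p = 0.0373 and 0.0181). Slc27a2, which imports and activates fatty acids, fell by less, 0.44, with tight pools, from 11.21, 11.21 and 11.11 to 10.73, 10.73 and 10.76 (limma adjusted p = 0.0135). Apart from Hsd17b4 and Hsd17b11, each of these calls was lost without pool 1, without pool 5 and without at least 2 of the other pools (limma adjusted p at most 0.194). With the mean of its probe sets, Acbd5 was at -0.61 and did not pass. Genes chosen after their values were seen were Lpcat3, which builds arachidonoyl phospholipids, at -0.63 (limma adjusted p = 0.00581) and Casp8, the initiator caspase, at -0.98 (limma adjusted p = 0.00258).

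Fat oxidation as a whole fell in part. Over its lists 22 of 92 measured genes fell (23.9%) and 0 rose, against 0.434% and 0.170% of all genes, with a median of -0.18 and 45 of 92 (48.9%) level. By list, 10 of 19 mitochondrial beta-oxidation genes fell (median -0.41) and the other 9 were level, 2 of 7 fell in the carnitine shuttle, 5 of 21 in peroxisomal beta-oxidation (median -0.08) and 3 of 21 in fatty acid uptake and activation. Omega-oxidation had 1 of 8, Aldh3a2, peroxisome biogenesis 1 of 16, Pxmp4, and the lipid droplet list 2 of 21, Plin5, a droplet coat protein, and Hsd17b11. Plin5 fell by 2.00 (limma adjusted p = 0.0215), and did not pass without any 1 of the 6 pools or with a trended, robust variance (at most 0.124). Cyp4a14, an omega-hydroxylase chosen after its values were seen, was at 5.63, 2.91 and 5.25 in WT and 2.31, 2.33 and 2.23 in KO pools. WT pool 2 was far below the other WT pools and all KO pools were under the array median, and the difference of -2.31 did not pass (limma adjusted p = 0.143). Acadm, the medium-chain dehydrogenase, chosen after its values were seen, was at 9.74, 9.63 and 9.79 in WT and 9.79, 9.74 and 9.72 in KO pools, with a difference of 0.03 (95% interval -0.14 to 0.19). Its neighbours in chain length Acadl and Acadvl fell by 1.48 and 1.23. Without pool 1 the count of 22 was 14 and without pool 5 it was 13.

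A promoter is shown for Slc25a20, the acylcarnitine carrier, which fell by 1.85, because it was the only one among the promoters of genes in the oxidation lists that fell to come within 2 mismatches of a PPAR response element, AGGTCANAGGTCA. The match, in capitals, lies 6 to 18 bases after the gene start and departs from the motif at 2 of its 12 fixed letters. The sequence is RefSeq's, on the plus strand of GRCm38.p6 at chr9:108661886-108662185:

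Slc25a20: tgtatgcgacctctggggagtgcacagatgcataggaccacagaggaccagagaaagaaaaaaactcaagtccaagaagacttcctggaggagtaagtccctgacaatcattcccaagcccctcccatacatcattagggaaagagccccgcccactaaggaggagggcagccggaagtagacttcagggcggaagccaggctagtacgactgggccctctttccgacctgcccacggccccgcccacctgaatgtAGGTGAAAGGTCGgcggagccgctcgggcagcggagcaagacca

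Searched on both strands with up to 2 mismatches, the motif was in 2 of 69 promoters of genes that fell (2.90%, the other being Aldh9a1, an aldehyde dehydrogenase chosen after its values were seen), 2 of 27 of genes that rose (7.41%) and 574 of 14452 of all tested genes (3.97%). No gene that passed held it exactly, against 7 of 14452 tested. Letters absent from this window say nothing about binding elsewhere.

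The respiratory chain and ATP synthase lists held mostly level genes. None of 68 respiratory chain and ATP synthase genes passed, against 0.605% of all genes. The median was 0.00, and 66 (97.1%) were level, against 84.7% of all genes. Among its bright genes 64 of 66 (97.0%) were level, against 68.7% of all bright genes. All 34 measured complex I genes were level, with differences from -0.22 to 0.15 and no interval beyond -0.47 or 0.34. Ndufa13 was at 10.16, 10.09 and 10.01 in WT and 10.11, 10.12 and 10.22 in KO pools, a difference of 0.07 (95% interval -0.12 to 0.26). Cox6b1 of complex IV was at 11.49, 11.36 and 11.31 and at 11.34, 11.38 and 11.44, a difference of 0.00 (95% interval -0.17 to 0.18). The pools of both genes overlapped throughout. The catalytic ATP synthase gene Atp5b was at -0.04. The 2 genes of the 68 not called level, chosen after their values were seen, were Cycs, cytochrome c, at -0.45 (95% interval -0.67 to -0.22, limma adjusted p = 0.104) and Atp5pb at -0.26 (95% interval -0.50 to -0.02).

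Central carbon pathways had no gene past the threshold in 4 lists, while 0.605% of all genes passed and 84.7% were level. Of 17 citric acid cycle genes 14 were level, with Sdhb at 0.17, Sdha at -0.03 and Fh1 at 0.07. Glycolysis had 10 of 14 level (median 0.04), with Ldha at -0.01 and Pgk1 at 0.14, gluconeogenesis 12 of 17 (median 0.06), with Fbp1 at 0.11, and glycogen metabolism 9 of 14 (median -0.13). The share of level genes among bright ones was 8 of 11 in glycolysis and 10 of 14 in gluconeogenesis, close to the 68.7% of all bright genes. Lipid synthesis differed by gene. Acacb, the acetyl-CoA carboxylase whose product blocks acylcarnitine formation, was at 4.71, 5.21 and 4.51 in WT and 6.18, 6.02 and 5.97 in KO pools, a rise of 1.24 (limma adjusted p = 0.00386, and 0.66 with the mean of its probe sets), and Elovl3 was the only other 1 of 30 fatty acid and triglyceride synthesis genes that passed. None of 20 cholesterol synthesis genes passed, but only 5 were level and the median was -0.26, with Hsd17b7 lowest, chosen after its values were seen, at -0.64 (limma adjusted p = 0.0865).

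No gene passed in the lists of cytosolic ribosomal proteins, proteasome, complement and coagulation, and cell cycle, while 0.605% of all genes did. Of 30 ribosomal protein genes 29 were level, of 31 proteasome genes 26 (83.9%), of 30 complement and coagulation genes 26 (86.7%), and of 27 cell cycle genes 24 (88.9%), against 84.7% of all genes. The cell cycle list had 4 bright genes, of which 2 were level. Rpl7a was at 0.00, Psmb4 at 0.01, the antithrombin gene Serpinc1 at -0.05, Plg, plasminogen, at 0.01 and F2, prothrombin, at 0.07. Proteasome genes had a median of -0.14, with every difference between -0.30 and 0.04.

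The unfolded protein response had 15 of 21 genes level and none past the threshold, with its chaperone Hspa5 at 10.54, 10.29 and 10.40 in WT and 10.38, 10.42 and 10.47 in KO pools. Lists of NRF2 targets (18 of 25 level), xenobiotic cytochromes P450 (14 of 21), acute phase proteins (15 of 23), the interferon response (18 of 27), heat shock proteins (8 of 13) and the circadian clock (11 of 20) also had 0 genes past the threshold. Over all genes 0.605% passed, and 1.70% of bright genes, while 84.7% of all genes were level. In lists this small, 0 is near those shares and does not show that a list was stable. Differences ran from -0.56 (Hspb1) to 0.77 (Hspa1b) among heat shock proteins, up to 1.15 (Mt2) in the acute phase list, up to 0.85 (Gsta2) among NRF2 targets and up to 0.74 (Cyp2b10) among the cytochromes P450, genes chosen after their values were seen. A member not called level may still be unaltered. Among conjugating enzymes 2 of 20 rose, Sult5a1 and Nat8, an acetyltransferase of the mercapturate route, which rose by 1.89 from 3.98, 3.95 and 4.91 to 5.96, 6.20 and 6.36 (limma adjusted p = 0.000465).

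Lists of regulators and cell types held at most 2 genes past the threshold each, where 0.605% of all genes and 1.70% of bright genes passed. Counts this small were not tested against those shares. In growth hormone and insulin signalling 1 of 24 genes passed, Stat5a. Among nuclear receptors and coregulators 2 of 30 passed, Pparg and Ppara, the knocked-out gene itself. Of 18 male-biased and 20 female-biased liver genes 1 each passed, Elovl3 and Rtn4. Pparg, the fat cell relative of Ppara, was at 2.74, 2.82 and 2.89 in WT and 3.22, 3.67 and 3.57 in KO pools, a rise of 0.67 (limma adjusted p = 0.0328) that did not pass after renewed quantile normalization or without pool 1, 2, 3, 5 or 6 (at most 0.171). The adipocyte list had a mean of 3.50 to 3.54 in WT and 3.56 to 3.62 in KO pools, with Adipoq, its defining hormone, at most 2.27, and the part of fat cells in the result was not tested. Stat5a, which carries growth hormone signals, fell by 0.51 (limma adjusted p = 0.0347), and did not pass without pool 1, 2, 3, 5 or 6 or under 4 other settings (at most 0.282). Myom2 was the only 1 of 17 skeletal muscle markers that passed. It fell by 2.46, or by 0.73 when probe sets marked _s_at or _x_at were left out and by 1.01 with the mean of its probe sets, and passed each time, while Acta1, Ckm, Myh4, Mylpf and Tnnt3, the defining markers, lay between 2.03 and 3.51 and differed by -0.11 to 0.02. The muscle list's mean was 2.64 to 2.76 in WT and 2.50 to 2.57 in KO pools. Oat was the only 1 of 18 pericentral and Apoa4 the only 1 of 17 periportal hepatocyte genes that passed. None of the genes of the Kupffer cell, endothelial, stellate, cholangiocyte, lymphocyte, neutrophil, erythroid and pancreatic lists passed. Pools did not overlap in 16.7% of all genes, a share of single genes that is no measure for list means. Like those of the adipocyte and muscle lists, the means of 3 of these lists did not overlap between genotypes. They ran from 2.43 to 2.48 in WT and 2.53 to 2.62 in KO pools for lymphocyte markers, from 3.32 to 3.34 and 3.39 to 3.52 for erythroid markers, and from 2.89 to 2.94 and 2.95 to 2.99 for pancreatic markers. The lymphocyte and muscle lists held 0 bright genes and the erythroid, adipocyte and pancreatic lists 1 each, so nearly all their members were dim. The muscle mean was lower in KO pools and the others higher, and array medians were also higher in KO pools (2.45 to 2.46 against 2.43 to 2.44). The part of the medians in these shifts, and of these lists in the other results, was not tested.

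**Figure D3:**
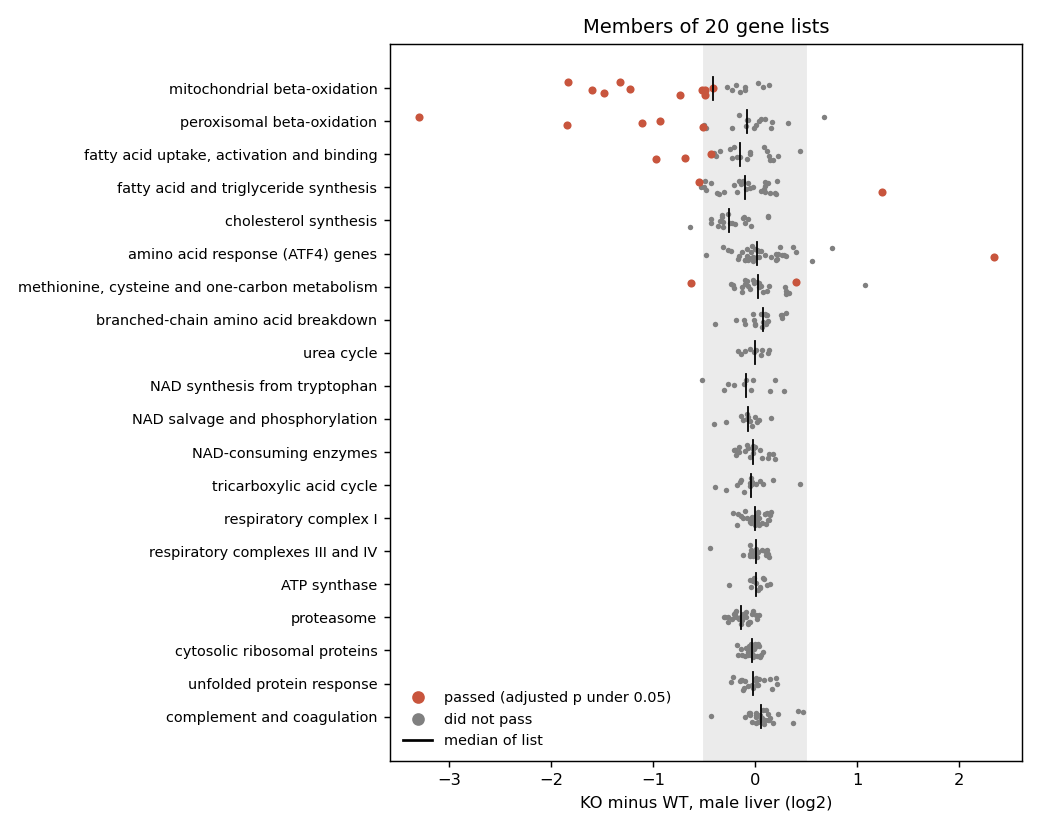
Differences between KO and WT male liver (log2) for each measured gene of 20 lists, with 1 point per gene, a vertical line at the list's median and red for genes that passed in limma. The grey band marks -0.5 to 0.5; mitochondrial beta-oxidation has 10 red points to the left, while all complex I genes lie between -0.22 and 0.15.

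The male changes were set against those of female liver. Of the 110 genes 107 differed in the same direction in females, against 55.9% of all genes tested, and 60 passed there too, against 0.813%. The test of the difference between the sexes passed for 12 of 18193 genes (0.0660%), of which 4 were among the 110: Vnn1, Retsat, Myom2 and Sult5a1. Side by side, Etfdh was at -1.60 in males and -1.72 in females, and Acadvl at -1.23 and -1.28.

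No amino acid or NAD gene passed this test. Asns was 2.73 ± 0.13 in WT and 2.86 ± 0.27 in KO females, so the female effect minus the male effect was -2.21 (95% interval -3.38 to -1.04), which did not pass over all genes (limma adjusted p = 0.576). Nnmt was already high in WT females, 9.90 against 7.29 in WT males, and averaged 10.12 in KO females. Nt5e averaged 7.33 in the WT and 7.80 in the KO female pools. For both, the difference of effects missed the threshold (95% interval -2.59 to -0.66 for Nnmt and -1.62 to -0.39 for Nt5e, with limma adjusted p of 0.715 and 0.752). The KO effect and the sex difference share the WT males, so they are not independent. Aox3 was 7.94 in WT and 7.74 in KO females, below both male groups. Dio1, at 8.83 in WT and 8.72 in KO females, and Rarres1, at 4.71 and 4.26, fell in males without passing in females, and their differences of effect, 1.18 and 1.34, missed the threshold (limma adjusted p = 0.1 and 0.105).

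**Figure D4:**
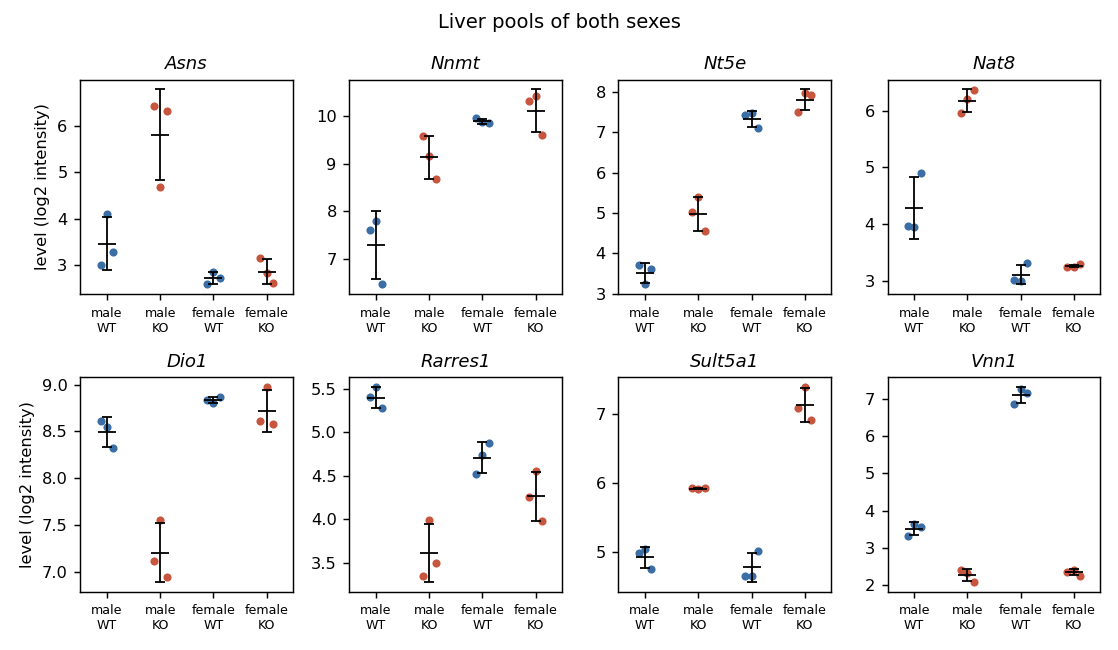
Levels (log2 intensity) of 8 genes in male and female liver, with 1 point per pool, a horizontal line for the mean and bars for the SD over 3 pools of each group; each panel has its own vertical axis, which does not start at 0. Asns is high only in male KO pools (4.68 to 6.43), Nnmt and Nt5e are high in both female groups, and Sult5a1 and Vnn1 are the panels whose difference between the sexes passed.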

How the data were processed

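The deposited values are log2 intensities of Affymetrix mouse genome arrays made by the authors with RMA, per the submitters' processing notes. The RMA version and the genome build are not given in the sources used here. Groups were taken from the sample titles. Of 45101 probe sets, 34945 named a single gene, 932 several and 9160 none, and 64 were controls. For each of 18193 genes, the brightest of its single-gene probe sets over 24 arrays was used, and for 1417 its name ended in _s_at or _x_at, a mark of possible cross-hybridization. Dim genes were kept. Precision is limited by the number of arrays.

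The 12 liver arrays were fitted as 4 groups with limma 3.58.1 in R 4.3.3 (lmFit, eBayes), with the male KO effect and its difference from the female effect as contrasts. The members and the 64 gene lists were chosen with earlier results of these data known. Lists were described by counts and medians with no set test, and 1064 of 1193 list genes were measured. Named genes were Ppara, rises ranked 9 to 20, falls ranked 9 to 24, amino acid and NAD genes that passed with the next 4 of each list, up to 4 passing members of other lists, the 3 brightest members of level lists, and a fixed set of amino acid, NAD and fuel genes (Asns, Nnmt, Nt5e, Nampt, Tdo2, Acmsd, Qprt, Aox1, Got1, Gpt, Gpt2, Cps1, Glul, Hal, Sds, Psat1, Phgdh, Atf4, Ddit3, Trib3, Acacb and Pdk4, with 1 further gene not reported here). Promoters were taken from RefSeq (GRCm38.p6), with 14452 of the tested genes matched by symbol.

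Alternatives were a fit of 6 or of 24 arrays, a trended robust variance, array weights, renewed quantile normalization, median centring, a filter on level, other choices of probe set, other bounds for level genes, and each pool left out. On simulated data, shifts of 0.5, 1 and 2 in male liver were recovered in 46.3%, 91% and 100% of genes, 9 of 167 calls were of unshifted genes, and 86.8% of unshifted genes were called level.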

Additional observations from a re-analysis of the deposited data

Results flagged for a closer look

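In 4 genes that passed in male liver the effect of the KO differed from that in females, by a test of the difference in limma. Vnn1, the pantetheinase gene, had a female minus male effect of -3.52 (limma adjusted p = 7.25e-07), from 7.11 in WT to 2.34 in KO females against a fall in males that ended under the array median. Retsat, which saturates retinol, had -1.94 (limma adjusted p = 0.00131), from 9.45 to 6.38 in females and from 9.14 to 8.02 in males. Sult5a1 had 1.35 (limma adjusted p = 0.0191), with KO means of 7.12 in females and 5.92 in males. Myom2, whose probe set may cross-hybridize and whose fall in males was 0.73 without probe sets marked _s_at or _x_at, had 2.24 (limma adjusted p = 0.0029), with 2.57 in female WT and 2.35 in female KO pools, so near the array median that little room for a fall was left.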

How the results depend on the processing

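The count of 110 genes was 169 with the 6 male arrays alone, 180 with all 24 arrays and 55 to 80 with 1 male pool left out, of which 53 to 74 were among the 110, and 153 without female KO pool 12, an alternative added after the data were seen. Renewed quantile normalization gave 125 genes, 36% of them higher against 28.2%. The 5 amino acid genes were 8 with the 6 male arrays, 8 after quantile normalization, and 0 to 1 with 1 pool left out. The 22 fatty acid oxidation genes were 13 to 19 with 1 pool left out. The 15409 level genes were 6332 where only genes above the median level were tested and 40058 where every probe set was, since fewer or more features were counted. The 12 genes of the sex difference were 31 with all arrays, 26 with array weights, 7 after quantile normalization, 6 with the mean of probe sets, and 4 to 30 with 1 pool left out, with 30 without pool 12. For these shifts, other than the level genes, the cause was not tested. The other alternatives moved each of these counts by at most 1.5 times, and the counts of NAD genes and of level respiratory genes stayed within that range throughout. Of 57 named genes that passed, 28 did so under every alternative, 29 were lost under at least 1, and 0 changed direction; of 107 that did not pass, 6 passed under some. No paired analysis was possible because WT and KO pools of a sex share no pool number. For genes near the array median the size of a difference is uncertain.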

Other observations

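Several large differences did not pass, and these genes were chosen after their values were seen. Of 51 genes that differed at least 2-fold, 44 passed and 7 did not. Igfbp2, which binds insulin-like growth factors, was at 9.54, 9.90 and 9.93 in WT and 8.25, 8.25 and 9.24 in KO pools, with a difference of -1.21 just short of passing (limma adjusted p = 0.0502). Igfbp1, an insulin-repressed relative, was at 6.07, 6.98 and 5.54 in WT and 7.10, 8.57 and 7.11 in KO pools, a difference of 1.40 (limma adjusted p = 0.378). G0s2, an inhibitor of triglyceride lipolysis, was at 8.11, 6.96 and 7.50 and at 8.54, 8.37 and 9.27, a difference of 1.20 (limma adjusted p = 0.119). In these 3 the groups did not overlap, as in 16.7% of all genes, and they were picked for large differences. Mt2, a metal-binding stress protein, ran from 4.68 to 7.11 in WT and from 6.14 to 7.83 in KO pools, so its groups overlapped (1.15, limma adjusted p = 0.569). At an unadjusted p under 0.05 limma gave 1591 genes.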
